A study of Mus musculus with 9 samples.

Results

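The genes described are the mouse beta-defensins Defb1, Defb2, Defb3, Defb4, Defb6 and Defb14, the lysozymes Lyz1 and Lyz2, and the whey acidic protein (WAP) domain inhibitors Slpi and Wfdc18. They were chosen by gene symbol, as 10 genes of epithelial and phagocyte antimicrobial defence. Of the 10, 6 had a probe under their own symbol and 1, Wfdc18, had one under its older symbol Expi, so 7 genes with 1 probe each were measured, out of 26423 probes in all. Defb3, Lyz1 and Lyz2 are not analysed here, since no named probe matched their current or older symbols. The gut side of the comparison therefore rests on other antimicrobial genes of the gut and has no lysozyme value.

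Array intensities were measured in colon of female BALB/c mice, with 3 groups and 3 arrays in each. Vanillin mice received azoxymethane (AOM), a colon carcinogen, at 12.5 mg/kg by injection on day 1, then 2.5% dextran sodium sulfate (DSS), a polymer toxic to colon epithelium, in their drinking water for 5 days from day 8, followed by 16 days of normal water. They had 3 further DSS cycles and 100 mg/kg of oral vanillin for 91 days. Sham mice had the same AOM and DSS course without vanillin, and Mock mice were untreated. The labels give neither the age of the mice nor the part of the colon sampled. Nor do they state that each array stands for its own mouse. The p-values therefore cover no more than array-to-array spread, possibly technical in part.

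Beta-defensins are small cationic peptides, rich in cysteine, that epithelial cells secrete and that damage microbial membranes. In skin, mouth and airways many of them are made by the surface epithelium, and some also attract immune cells through the chemokine receptor Ccr6. The gut relies on other products as well, such as Paneth cell lysozyme and alpha-defensins, and Reg3 lectins. WAP-domain proteins such as Slpi inhibit neutrophil proteases and can themselves act against microbes.

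Arrays within a group correlated at 0.9952 to 0.9976 across probes, and arrays of different groups at 0.9691 to 0.9728 for Vanillin with Mock, 0.9642 to 0.9665 for Vanillin with Sham and 0.9259 to 0.9285 for Sham with Mock. The median intensity was 319.6 to 320.1 on every array. Of 19 measured colonocyte markers, 8 rose, 3 fell and 8 were not called in Sham minus Mock (median 0.05). In Vanillin minus Sham 0 rose, 13 fell and 6 were not called (median -0.29), and in Vanillin minus Mock 3 rose, 8 fell and 8 were not called (median -0.12). Epcam had mean intensities of 64453 in Vanillin, 60542 in Sham and 63711 in Mock, near the highest array value of 65509, so its evenness across groups says little. The markers Krt8 and Slc51a were under 50 on every array, so those defining markers were not seen. Markers of stratified squamous epithelium were also measured: the summed intensity of the 20 was 467810 to 516597 in Vanillin, 68209 to 73035 in Sham and 742403 to 756177 in Mock. Changes below are differences of log2(intensity + 16) with their standard error (SE), and adjusted p-values come from limma with Benjamini-Hochberg adjustment over all probes. A gene is said to have risen or fallen where that adjusted p was under 0.05.

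**Figure D1:**
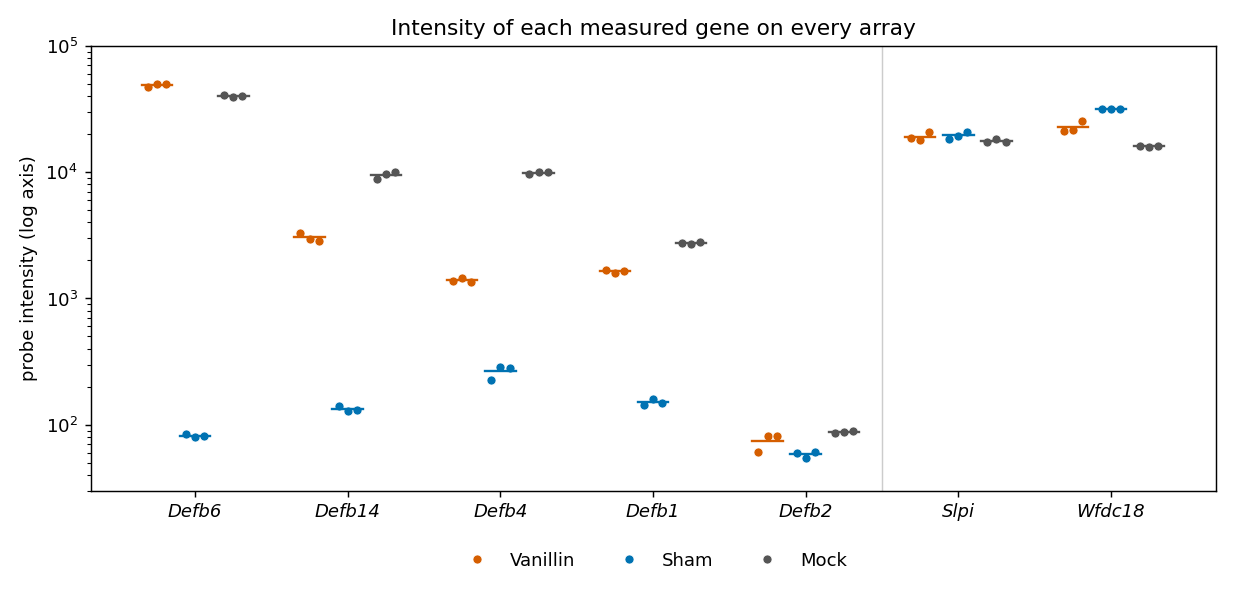
Probe intensity on a log axis for the 7 measured genes; points are arrays, lines are means of 3 arrays, and each gene has Vanillin, Sham and Mock from left to right. Defb6, Defb14, Defb4 and Defb1 were lowest in Sham, while Slpi and Wfdc18 were bright in every group.

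Sham minus Mock asks what the AOM and DSS course changed. Beta-defensin levels were far lower in Sham colon. All 5 measured beta-defensins fell, with log2 changes between -8.67 and -0.47 and a median of -5.15. In this comparison 23.2% of all probes were called lower and 59.7% were called in either direction, and the median change over all probes was 0.10. Sham and Mock arrays did not overlap for any of the 5, as for 67.1% of all probes (25.9% lower and 41.2% higher in Sham).

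Defb6, a beta-defensin known from muscle and from the lining of mouth and oesophagus, had the widest swing. Its intensity was 47437, 49591 and 50395 in Vanillin, 84.9, 79.7 and 81.3 in Sham, and 40575, 39277 and 40105 in Mock. No 2 groups overlapped, and Sham arrays stood alone near the dim end while Vanillin arrays stood above Mock. The gene fell by 8.67 in Sham minus Mock (SE 0.0464, adjusted p = 5.64e-13), the 12th lowest change of all probes.

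Defb14, the mouse counterpart of human DEFB103A of skin and tonsil, measured 3281, 2973 and 2876 in Vanillin, 140.5, 127.6 and 131.7 in Sham, and 8849, 9652 and 10109 in Mock. The groups did not overlap, and Vanillin lay between the other two. It fell by 5.999 in Sham minus Mock (SE 0.0713, adjusted p = 1.07e-11).

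Defb4, a beta-defensin of airway, tongue and oesophagus, measured 1380, 1453 and 1345 in Vanillin, 226.5, 285.2 and 282.0 in Sham, and 9616, 10064 and 10066 in Mock. Its Vanillin arrays were again intermediate, and the groups did not overlap. It fell by 5.15 in Sham minus Mock (SE 0.0836, adjusted p = 7.3e-11).

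Defb1, which many epithelia, including that of the kidney, make without a stimulus, measured 1678, 1604 and 1641 in Vanillin, 143.4, 158.8 and 150.0 in Sham, and 2757, 2712 and 2784 in Mock. The groups did not overlap. It fell by 4.05 in Sham minus Mock (SE 0.0491, adjusted p = 1.22e-11).

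Defb2, inducible in the airway, was dim everywhere: 60.6, 82.1 and 81.1 in Vanillin, 60, 54.4 and 61.4 in Sham, and 85.7, 88.2 and 88.7 in Mock. Only 24.4% of probes were dimmer on average. Sham and Mock arrays did not overlap, whereas Vanillin replicate 1 lay within the Sham range. Its fall of 0.47 in Sham minus Mock (SE 0.0932, adjusted p = 0.00185) was the smallest of the 5.

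Squamous epithelium markers moved with these genes. All 20 measured ones fell in Sham minus Mock (median -4.96), among them Krt1 (-9.72), the involucrin gene Ivl (-7.58, with -5.38 on another probe), the basal-cell regulator Trp63 (-6.49, with -2.63 and -5.79 on its other probes) and Sbsn (-5.92, with -8.49 on another probe). Hair follicle markers fell in 12 of 14 measured genes and rose in 1 (median -4.19), the riser being Lgr6 (0.91), with summed intensities of 55117 to 57461 in Vanillin, 2886 to 2895 in Sham and 106501 to 112320 in Mock. None of the squamous or hair follicle markers was under 50 on every array. The part of these tissues in the beta-defensin values was not tested. The labels do not give the part of the colon sampled, so whether it differed between groups was not tested either. In bulk tissue, fewer cells of a type and less RNA per cell cannot be told apart.

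**Figure D2:**
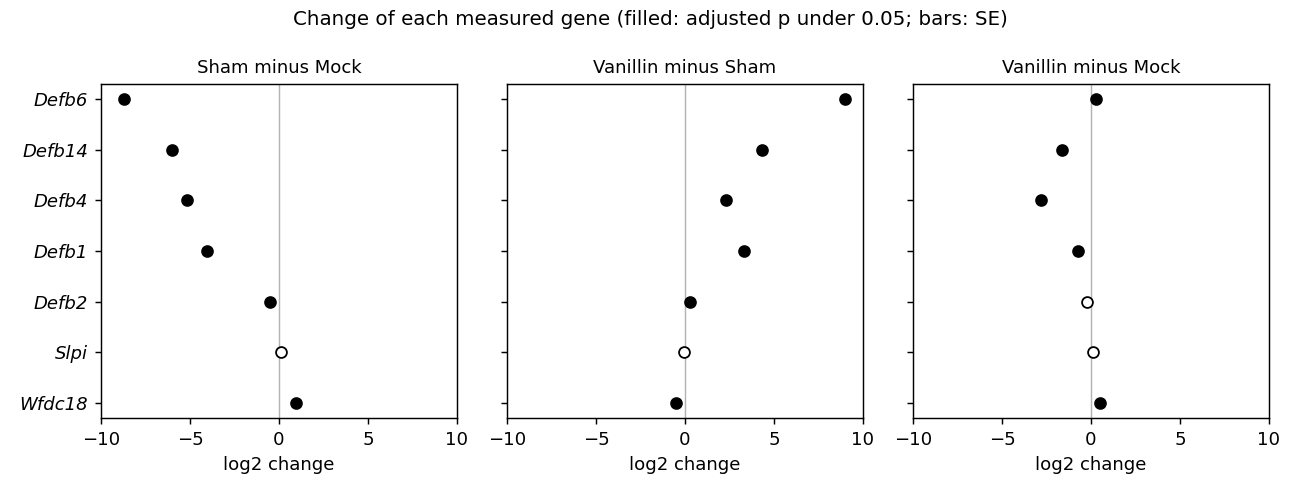
Log2 change of each measured gene in the 3 comparisons; bars are SE, often narrower than the symbol, and filled points passed an adjusted p of 0.05. Beta-defensin points run from -8.67 to -0.47 in Sham minus Mock and from 0.27 to 8.97 in Vanillin minus Sham.

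Vanillin minus Sham asks how oral vanillin changed the AOM and DSS colon. It shares the Sham arrays with the comparison above, with opposite sign, so the reversed direction of a gene is not a separate observation. All 5 beta-defensins rose, with a median of 3.31, where 15.7% of all probes were called higher, 47.9% were called in either direction, and the median over all probes was -0.09. Arrays did not overlap for 4 of the 5, as for 56.3% of all probes (18.2% higher and 38.1% lower in Vanillin). Defb6 rose by 8.97 (SE 0.0464, adjusted p = 5.73e-13), the third largest rise of all probes. The rise was 4.36 for Defb14 (SE 0.0713, adjusted p = 1.64e-10), 3.31 for Defb1 (SE 0.0491, adjusted p = 8.86e-11) and 2.33 for Defb4 (SE 0.0836, adjusted p = 4.47e-08).

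The rise of Defb2 was small (0.27, SE 0.0932, adjusted p = 0.0393), its arrays overlapped, and the call was lost in 10 of 18 alternatives. Its adjusted p was 0.0866 with the replicate number as a block among the Sham and Vanillin arrays, and 0.0751 with only the 6 arrays compared. It was 0.0508, 0.0555 and 0.0577 without Mock replicates 1, 2 and 3, and 0.0731, 0.117 and 0.0569 without Sham replicates 1, 2 and 3. Without Vanillin replicates 2 and 3 it was 0.131 and 0.127, and without Vanillin replicate 1 it was 0.000861.

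Of the 20 squamous epithelium markers, 18 rose and 2 were not called in Vanillin minus Sham (median 4.22). Krt1 rose by 8.69, Ivl by 6.86 (4.78 on another probe), Trp63 by 5.72 (1.35 and 4.88 on its other probes) and Sbsn by 5.71 (8.03 on another probe), and those not called were Krt14 (0.99) and Tgm3 (0.10), named after their values were seen. Colonocyte markers moved the other way, with 13 of 19 lower, where 32.2% of all probes were called lower. Hair follicle markers rose in 12 of 14 (median 3.35), and adipocyte markers in 9 of 12, with 3 lower (median 3.53). Summed adipocyte marker intensity was 114427 to 117276 in Vanillin, 23293 to 24210 in Sham and 137028 to 138101 in Mock, with the defining marker Pparg under 50 on every array, and the part of these cells in the beta-defensin values was not tested.

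Vanillin minus Mock shows how far each beta-defensin differed from untreated colon. Of the 5 measured genes, 1 was higher, 3 were lower and 1 was not called, where 24.5% of all probes were called higher, 26.2% lower and 50.7% in either direction. Vanillin and Mock arrays did not overlap for any of the 5, 1 higher and 4 lower, as for 60.4% of all probes (29.2% higher and 31.2% lower in Vanillin). Defb6 rose by 0.30 (SE 0.0464, adjusted p = 0.00061), which put its mean intensity at 122.9% of Mock. Defb1 fell by 0.74 (SE 0.0491, adjusted p = 2.3e-06), to 59.7% of Mock.

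Defb14 fell by 1.64 in Vanillin minus Mock (SE 0.0713, adjusted p = 1.49e-07), to 31.9% of Mock. Defb4 fell by 2.82 (SE 0.0836, adjusted p = 1.38e-08), to 14.1% of Mock, and was the 59th lowest change of all probes. Defb2 was not called (-0.20, SE 0.0932, adjusted p = 0.103, 95% interval -0.41 to 0.01), and its change was -0.085 without Vanillin replicate 1.

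The order of the beta-defensins in Vanillin relative to Mock was thus Defb6, Defb2, Defb1, Defb14 and Defb4. The difference between genes was compared within arrays, setting Defb6, the gene with the widest swing, against each of 3 others. The log2 difference Defb6 minus Defb4 was 5.13 ± 0.075 in Vanillin and 2.01 ± 0.058 in Mock (SD, n = 3 each), a shift of 3.12. The shift was 1.94 for Defb6 minus Defb14 and 1.04 for Defb6 minus Defb1. In each case the Vanillin and Mock arrays did not overlap. A two-sided exact permutation test gave p = 0.1 for each of these and for the 6 like tests in the other comparisons (adjusted p = 0.1 over the 9), which is the smallest p that 3 arrays against 3 allow, so no outcome could have passed 0.05 and the shifts are a description.

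Defb14, Defb4 and Defb6 are neighbours on chromosome 8 in the RefSeq annotation of GRCm38.p6, with 0 protein-coding genes between Defb14 and Defb4 and 0 between Defb4 and Defb6. Defb3 follows Defb6 after 2 such genes, and Defb1 and Defb2 lie on the same chromosome with 1 gene between them. Neighbours thus differed widely in Vanillin minus Mock, from -2.82 for Defb4 to 0.30 for Defb6.

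Squamous epithelium markers spread over a similar range in Vanillin minus Mock, from -3.81 to 0.34 (median -0.74, 1 higher, 14 lower and 5 not called of 20). Krt4 and Krt13, keratins of the non-cornified lining of mouth and oesophagus, fell by 3.81 and 3.34. The basal-cell regulator Trp63 fell by 0.76. The one marker that rose was Flg2 (0.34), a filaggrin relative of cornified skin, and Krt10 of the same tissue was not called (0.00). Krt13, Flg2 and Krt10 were named after their values were seen. Late cornified envelope genes of the skin-type list described below were lower: Lce3b (-4.2), Lce3a (-3.68) and Lce3e (-2.68). In that list 11 of 15 fell, 1 rose and 3 were not called, so genes of cornified skin did not share 1 direction.

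**Figure D3:**
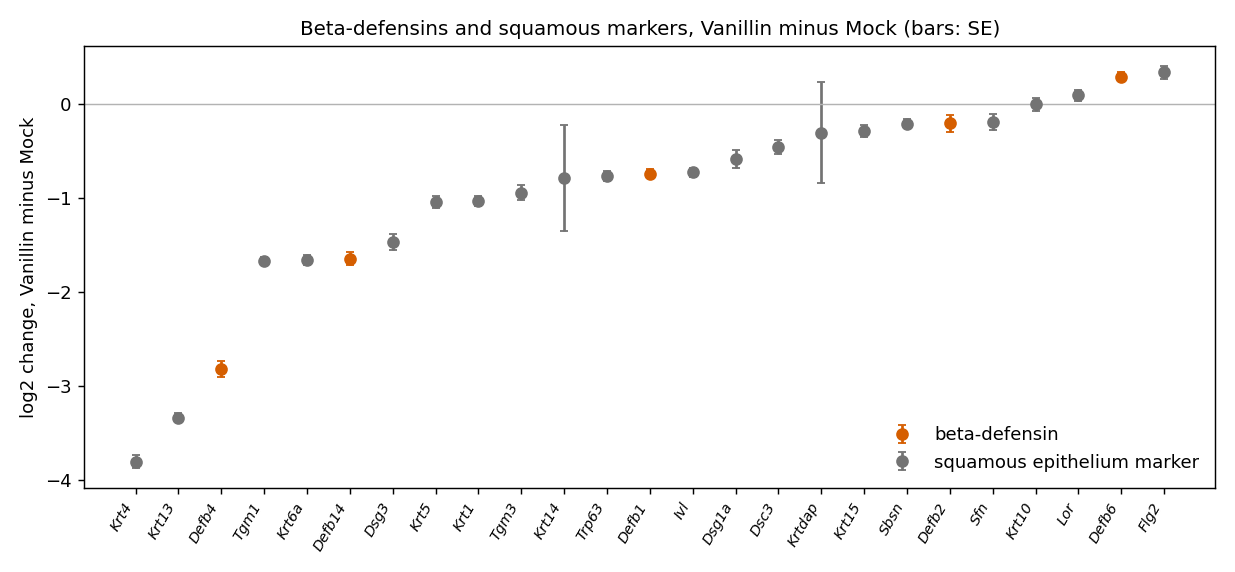
Log2 change in Vanillin minus Mock, with SE bars, for the 5 beta-defensins and the 20 squamous epithelium markers in order of size. Defb4 at -2.82 lies near the lowest markers, Krt4 and Krt13, and Defb6 at 0.30 near the highest, Flg2.

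Promoter sequence is shown for the 3 measured genes that the RefSeq table holds, because they moved in different ways: Defb6 fell and Wfdc18 rose in Sham minus Mock, and Slpi was not called. Each is the 250 bases before the annotated start, read 5′ to 3′ on the gene's strand in GRCm38.p6. Capitals mark matches to any of these motifs on either strand: TATAAA, the AP-1 motif TGANTCA, the KLF motif CCACCC, the STAT motif TTCNNNGAA and the NF-kappaB consensus.
Defb6, chr8:19225228-19225477, plus strand: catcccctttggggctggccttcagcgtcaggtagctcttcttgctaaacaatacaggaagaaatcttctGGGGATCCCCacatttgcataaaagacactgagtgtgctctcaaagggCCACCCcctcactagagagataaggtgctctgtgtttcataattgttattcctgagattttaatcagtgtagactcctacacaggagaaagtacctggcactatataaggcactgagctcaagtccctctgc
Wfdc18, chr11:83708754-83709003, plus strand: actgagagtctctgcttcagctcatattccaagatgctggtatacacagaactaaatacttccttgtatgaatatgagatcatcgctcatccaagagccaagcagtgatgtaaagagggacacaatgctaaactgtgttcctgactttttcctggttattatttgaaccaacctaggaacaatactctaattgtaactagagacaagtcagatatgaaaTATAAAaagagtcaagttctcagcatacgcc
Slpi, chr2:164356508-164356757, minus strand: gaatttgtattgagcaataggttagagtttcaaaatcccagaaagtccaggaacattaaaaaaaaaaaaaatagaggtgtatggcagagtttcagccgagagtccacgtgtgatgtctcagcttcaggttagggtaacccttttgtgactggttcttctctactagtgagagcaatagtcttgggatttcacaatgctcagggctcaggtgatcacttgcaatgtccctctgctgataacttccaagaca
The Defb6 window holds 1 NF-kappaB match, starting 180 bases before the start, and 1 CCACCC match, starting 132 bases before it. The Wfdc18 window holds 1 TATAAA match, 31 bases before the start, and the Slpi window holds none of the 5 motifs. Variants of the motifs were not searched, so the TATA-like stretch tatataag near the end of the Defb6 window is not marked. Among 32851 promoter windows of that length, 7.3% hold the NF-kappaB consensus, 28.1% CCACCC, 12.4% TATAAA, 6.7% the AP-1 motif and 7.0% the STAT motif. The Defb6 and Defb3 windows shared 196 identical bases over 265 aligned columns (74.0%), against 49.5% to 53.6% between Defb6 and the windows of Lyz1, Lyz2, Slpi and Wfdc18. Whether the Defb6 probe also reads Defb3 RNA was not tested.

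The WAP-domain inhibitors did not share the beta-defensin pattern. Wfdc18, a small inhibitor known from the mammary gland, measured 21324, 21556 and 25242 in Vanillin, 31393, 31741 and 31900 in Sham, and 16094, 15967 and 15986 in Mock. The groups did not overlap, with Sham highest and Mock lowest. It rose by 0.98 in Sham minus Mock (SE 0.0662, adjusted p = 1.42e-06), where 36.5% of all probes were called higher.

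With vanillin Wfdc18 was lower than in Sham (-0.48, SE 0.0662, adjusted p = 0.000355), where 32.2% of all probes were called lower. It stayed above Mock (0.50, SE 0.0662, adjusted p = 0.00022). Markers of mammary and sebaceous gland moved the other way in Sham minus Mock, where 10 of 14 fell, 1 rose (Soat1, 0.25) and 3 were not called (median -1.77), among them the casein gene Csn1s1 (-6.86). Their summed intensity was 113998 to 115812 in Vanillin, 17890 to 19240 in Sham and 128581 to 132944 in Mock, with Csn3 under 50 on every array.

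Slpi, which inhibits neutrophil elastase at mucosal surfaces, measured 18532, 17939 and 20960 in Vanillin, 18452, 19320 and 20903 in Sham, and 17295, 18286 and 17483 in Mock. The Sham and Mock arrays did not overlap, but the gene was not called in any comparison. Its change was 0.14 in Sham minus Mock (95% interval -0.02 to 0.31, adjusted p = 0.118), -0.03 in Vanillin minus Sham (-0.20 to 0.13, adjusted p = 0.746) and 0.11 in Vanillin minus Mock (-0.05 to 0.28, adjusted p = 0.233). The last was 0.044 without Vanillin replicate 3.

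Other genes of the same families behaved in several ways. WAP-domain genes of skin, Wfdc5 (-4.14), Wfdc12 (-4.66) and Wfdc21 (-2.95), are in the skin-type list described below and fell in Sham minus Mock. Of the 15 other WAP-domain genes measured, 2 rose, 5 fell and 8 were not called in Sham minus Mock (median 0.00). The shares over all probes were 36.5% called higher and 23.2% called lower. Wfdc3 fell by 2.08, Wfdc1 by 1.11 and Wfdc9 by 0.98, and the milk protein gene Wap fell by 0.69 at a mean intensity of 31.3 in Sham and 60.4 in Mock. Named after their values were seen, Wfdc2 also fell (-0.18), and Wfdc15b (0.27) and Wfdc6a (0.81, with -0.16 on its other probe) rose. In Vanillin minus Sham 1 of these 15 rose, Wfdc3 (1.60), and 2 fell, Wfdc2 (-0.31) and Wfdc16 (-0.35). The shares over all probes were then 15.7% called higher and 32.2% called lower. The 3 of the skin-type list rose, Wfdc12 by 3.37, Wfdc21 by 2.93 and Wfdc5 by 2.73.

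Of 34 other beta-defensins, many of them genes of the male reproductive tract, 15 were under 50 on every array. In Sham minus Mock 36.5% of all probes were called higher and 23.2% lower. Of the 34 genes, 8 rose, 2 fell and 24 were not called there (median 0.06). Those with the smallest p were Defb26 (1.25), Defb36 (1.31), Defb45 (-0.34) and Defb50 (0.98), and the other one that fell was Defb11 (-0.34). Defb45 had mean intensities of 1612 in Vanillin, 2572 in Sham and 3254 in Mock, and fell again in Vanillin minus Sham (-0.67, adjusted p = 1.74e-05). Of 3 lysozyme-like genes measured, Spaca5 (0.31), Lalba (-0.04) and Spaca3 (-0.04) were not called in Sham minus Mock, and Spaca3, a sperm protein gene, fell in Vanillin minus Sham (-0.36, adjusted p = 0.00307).

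Genes of the skin-type and gut-type lists differed in direction in Sham minus Mock. Of the members placed on the skin side beside that list, all 5 beta-defensins fell, but Wfdc18 rose (0.98) and Slpi was not called (0.14). All 15 measured genes of the skin-type list fell (median -4.65), among them the epidermal protease Klk7 (-8.74), the cornified envelope gene Sprr1b (-8.79), the protease inhibitor gene Spink5 (-6.79) and the interleukin-36 beta gene Il1f8 (-4.33). The gut-type list has 24 genes, of which only 9 were measured: 7 rose and 2 were not called (median 0.93). The lectin genes Reg3b and Reg3g rose by 6.65 and 7.02, Mmp7, whose protease activates alpha-defensins, by 8.24, and the phospholipase gene Pla2g2a by 5.18. The median over all probes was 0.10, with 36.5% called higher and 23.2% called lower. Both lists were chosen with results of these data known.

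The 2 gut-type genes not called were Reg3a (0.61, adjusted p = 0.0764) and Lypd8, whose brightest probe sat at the top of the intensity range in all groups and whose other probe changed by -0.56 in Sham minus Mock, 0.20 in Vanillin minus Sham and -0.35 in Vanillin minus Mock. Pla2g2a in Vanillin and Sham, Retnlb in the same groups and Lypd8 lay near the highest array value of 65509, so their changes may be too small. Of 18 listed Paneth cell markers only 6 were measured, so most have no value. All 6 rose in Sham minus Mock (median 2.47), of which Mmp7 and Pla2g2a are also in the gut-type list. Their summed intensity was 88319 to 90564 in Vanillin, 106256 to 107684 in Sham and 11967 to 12892 in Mock.

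**Figure D4:**
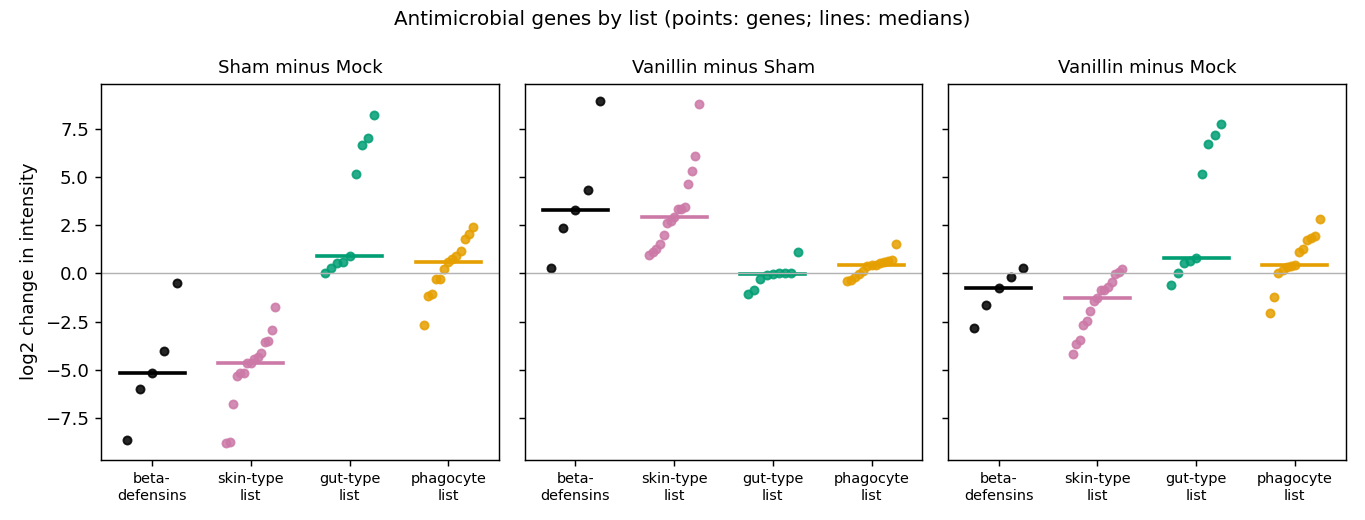
Log2 changes of single genes in 4 sets (5 beta-defensins, 15 skin-type, 9 gut-type and 13 phagocyte genes) for the 3 comparisons; lines are medians. In Sham minus Mock the medians were -5.15, -4.65, 0.93 and 0.60.

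In Vanillin minus Sham all 15 skin-type genes rose (median 2.93), with Klk7 at 8.79, Spink5 at 6.10, Il1f8 at 3.45 and Sprr1b at 5.33. The gut-type list held 1 higher, 3 lower and 5 not called of 9, where 15.7% of all probes were called higher and 32.2% lower. Of those not called, Pla2g2a, Retnlb and Lypd8 were near the highest array value in both groups and so could not show a difference, and the list's median of -0.01 is the value of Pla2g2a. Reg4, also not called (-0.11, adjusted p = 0.0722), had means of 60205 in Vanillin and 64852 in Sham, so its change may be too small. Reg3b rose by a further 1.14 (SE 0.0515, adjusted p = 2.47e-07), while Zg16 (-0.88), Mmp7 (-1.07) and Reg3g (-0.28) fell.

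In Vanillin minus Mock the skin-type list was mostly lower: 11 of 15 fell, 1 rose and 3 were not called (median -1.29). The late cornified envelope genes Lce3b, Lce3a and Lce3e changed by -4.2, -3.68 and -2.68, and Sprr1b by -3.46; all 4 passed the test. Klk5, named after its value was seen, was the one that rose (0.22), and Klk7 (0.05), Wfdc21 (-0.01) and Il1f9 (-0.46) were not called. The gut-type list was mostly higher: 6 of 9 rose, 1 fell and 2 were not called (median 0.82). The shares over all probes were 24.5% called higher and 26.2% called lower. Reg3b rose by 7.79, Pla2g2a by 5.17, Mmp7 by 7.18 and Reg3g by 6.73, and the mucus-associated lectin gene Zg16 was the one that fell (-0.62).

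The medians of the phagocyte antimicrobial genes lay between those of the skin-type and gut-type lists. In Sham minus Mock 8 rose and 5 fell of 13 (median 0.60): the iron-binding lipocalin gene Lcn2 rose by 2.07 and the metal transporter gene Slc11a1 by 1.81, while the lactoferrin gene Ltf fell by 2.66 and Prtn3 by 1.08. Also lower were S100a8 (-1.19), Ctsg (-0.27) and Mpo (-0.29), named after their values were seen. The S100a8 probe was dim, with means of 75.1 in Vanillin, 76.0 in Sham and 193.9 in Mock. S100a9, whose product pairs with that of S100a8, rose by 1.16 in Sham minus Mock. In that comparison 36.5% of all probes were called higher and 23.2% lower. In Vanillin minus Sham 8 rose, 1 fell and 4 were not called (median 0.42), with Prtn3 at 1.503, S100a9 at 0.66, Mpo at 0.69 and Ncf1 at 0.38. S100a9 averaged 62191.5 in Vanillin, near the highest array value of 65509, so its change may be too small. The phagocyte gene that fell was Lcn2 (-0.33). In Vanillin minus Sham 15.7% of all probes were called higher and 32.2% lower. Among neutrophil markers, 11 of 13 were also higher in that comparison and 0 lower (median 0.69). Macrophage and monocyte markers were higher in 9 of 18 and lower in 2 (median 0.19). The part of these cells in the phagocyte values was not tested. Lyz2 is a gene of such cells, and macrophage and monocyte markers rose in 12 of 18 and fell in 2 in Sham minus Mock (median 0.92). Their summed intensity was 145762 to 148324 in Vanillin, 122211 to 126649 in Sham and 60702 to 61671 in Mock. Neutrophil markers, of which Ltf, S100a8 and Mpo are also in the phagocyte list, rose in 9 of 13 and fell in 4 (median 2.31).

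Known inducers and receptors of beta-defensins were more often higher than lower in Sham, as were all probes (36.5% called higher and 23.2% lower). Of 23 measured, 13 rose, 4 fell and 6 were not called in Sham minus Mock (median 0.45). The cytokine genes Il1b and Il6, which induce beta-defensins in epithelial cells, rose by 3.87 and 3.19, and Ccl20, whose product shares the receptor Ccr6 with beta-defensins, rose by 1.80. The NF-kappaB subunit gene Nfkb1 fell by 3.05, while Rela, another subunit, rose by 0.25 (adjusted p = 0.0264). The other genes that fell were Vdr (-1.40), Klf4 (-1.23) and Hif1a (-0.30, with 0.47 and -0.17 on its other probes). These 3 and Rela were named after their values were seen.

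The receptor gene Ccr6 rose by 0.68, and Il17a was not called (0.12, adjusted p = 0.286). In Vanillin minus Sham 8 rose, 4 fell and 11 were not called of 23 (median 0.05), with Il1a at 1.27, Il1b at 1.53 and Ccl20 at -1.005. Of all probes 15.7% were called higher and 32.2% lower in that comparison. In Vanillin minus Mock Il1b had risen by 5.39, Il6 by 3.24 and Il1a by 2.42, while Vdr had fallen by 1.23. In Sham minus Mock Il1b and Il6 were higher where the beta-defensins were lower, while Nfkb1, Vdr, Klf4 and Hif1a were lower with them. In Vanillin minus Sham Il1a and Il1b rose with the beta-defensins and Ccl20 fell. Whether any of these genes acted on the beta-defensins was not tested.

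The genes most like each member were found by the root mean square difference of centred log2 values over the 9 arrays, among 17742 genes. For Defb6 they were hornerin Hrnr (0.098), Klk7 (0.122) and Cst6 (0.159, with 4.198 on a second probe). Hrnr had mean intensities of 27295 in Vanillin, 36.6 in Sham and 20042 in Mock, the same order of groups as Defb6. For Defb14 they were the lipid desaturase gene Scd3 (0.129), Klk11 (0.135, with 2.30 on a second probe) and Fbp2 (0.139).

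For Defb4 the nearest were Duoxa1 (0.191), which supports an oxidase, the gap junction gene Gjb2 (0.203) and Tmem45a2 (0.207, with 1.93 on a second probe). For Defb1 they were the chitinase gene Chit1 (0.068), Calhm4 (0.084) and Mreg (0.093, with 0.133 on a second probe). Chit1 had means of 5544 in Vanillin, 558.9 in Sham and 8977 in Mock. Wfdc18 was nearest to Gemin6 (0.043), Ifit1bl2 (0.056) and Nup133 (0.056, with 0.404 on a second probe). The dim Defb2 was nearest to Zfand3 (0.074), Atp2b2 (0.077) and Ece1 (0.077).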

How the data were processed

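RNA from mouse colon was measured on 9 one-colour (Cy5) arrays, 3 each for Vanillin, Sham and Mock. The deposited values are linear intensity per probe; the submitters' processing notes name limma, with no role or version. As the values show, the deposited intensities are already background-subtracted, with 3 to 14 probes below 0 per array, and share 1 distribution, the largest difference of a quartile between arrays being 0.0128 on the log2 scale.

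Values below 0 were set to 0, and log2(intensity + 16) was fitted by lmFit and eBayes of limma 3.58.1 (R 4.3.3) as 3 group means over all 9 arrays, with Benjamini-Hochberg adjustment over 26423 probes. No probe was filtered out. There were 6 residual and 2.69 prior degrees of freedom, and the number of arrays limits the precision. Probes were named through the platform annotation, updated through RefSeq: 20377 had 1 symbol, 0 several and 6046 none. A gene with several probes was given by its brightest probe. The fit was tested on simulated data. Promoter sequences are RefSeq's, with Python 3.11.15.

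Members and gene lists were chosen with earlier results of these data known. All member probes are named whatever their values, with the 3 genes most like each called member and up to 4 genes with the smallest p per list. Replicate numbers were checked for pairing: deviations of same-numbered arrays correlated at 0.1693, 0.1261 and 0.201 between Sham and Vanillin, all above 0.1, and at -0.2876 to -0.0162 between either and Mock. By the mark of 0.1 the numbers were taken to pair Sham with Vanillin only. Differently numbered Sham and Vanillin arrays correlated at -0.2026 to 0.0017, but Mock replicate 1 with Vanillin replicate 3 reached 0.215. The check therefore does not establish pairing, and the replicate block was fitted only as an alternative. Alternatives were the pseudocount, a filter on dim probes, other scaling, array weights, a trended prior, the replicate block, fewer arrays and each array left out.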

Additional observations from a re-analysis of the deposited data

How the results depend on the processing

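Of 382 values of the 7 genes under the alternatives, 370 kept their direction and their side of the threshold. The 10 that lost their call were those of Defb2 in Vanillin minus Sham, given above. Slpi in Vanillin minus Sham, not called in any fit, changed sign without Sham replicate 3 (0.017) and without Vanillin replicate 2 (0.013), and ranged from -0.099 to 0.017 with 1 array left out; the cause was not tested. With 1 array left out, Defb2 in Vanillin minus Mock ranged from -0.264 to -0.085 (-0.126 with array weights), Slpi from 0.044 to 0.156 in Vanillin minus Mock and from 0.095 to 0.184 in Sham minus Mock, none of them called. Defb2 has no value without the dimmest 30% of probes, where it was left out by the filter, and no member had several probes to average. With the replicate number as a block, 15498, 12269 and 13021 probes were called for Sham minus Mock, for Vanillin minus Sham and for Vanillin minus Mock, against 15787, 12659 and 13404 without it, and no call of a member changed. Among the Sham and Vanillin arrays alone, a block chosen after seeing the data gave 11587 calls and changed only that of Defb2. Leaving out 1 array gave 14265 to 16222, 10802 to 12752 and 11679 to 13648 calls. A fit of 1 mean value per gene, which also changes the set of features fitted and adjusted over, moved 4 of 90 list counts by over 1.5 times: lower genes became 1 and 2 in the gut-type list (Sham minus Mock and Vanillin minus Mock), 2 in the phagocyte list and 4 among other WAP-domain genes (both Vanillin minus Sham); the phagocyte genes have 1 probe each, so averaging did not move their count. Dim probes such as Defb2 limit what can be told at low signal, and values near the top of the range limit genes such as Pla2g2a, Retnlb, Reg4, Lypd8 and S100a9.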
